A study of Macaca mulatta with 2 samples.

Results

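*GATA3*, *MAF* and *PTGDR2* were examined as 3 genes associated with type 2 helper T (Th2) cells, taken by name from the 35432 genes of the deposited counts. All 3 passed the gene filter, which left 14459 genes. The cells were circulating CD4+CD8+ double-positive (DP) T cells of 1 untreated rhesus monkey aged 6 years, isolated from blood with releasable CD4 beads and then with CD8 beads. A 5′ RNA library and an antibody library, with tags against CD4 and CD8, were made from these cells, and all 7923 cell barcodes held counts of both. Each molecule carries a unique molecular identifier (UMI), so a UMI stands for 1 captured molecule. After the filters on cells, 7601 were kept with 31003071 UMIs, and the 7311 with a UMI of *CD3E*, the epsilon chain of CD3, are called CD3E+ cells here. They held 509 to 23511 UMIs each, with a median of 3655. *CD3D* was found in 92.9% of them, *CD4* in 48.6%, *CD8A* in 39.0% and *CD8B* in 3.99%. Both tags lay above the tag limits used below in 49.1% of CD3E+ cells.

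*GATA3* is the transcription factor that directs helper T cells toward the Th2 fate and is also needed earlier, for T cell development in the thymus and for the CD4 lineage. *MAF* encodes c-Maf, a transcription factor first described in Th2 cells as an activator of the interleukin-4 gene and later in follicular helper, Th17 and IL-10-producing T cells. *PTGDR2* encodes CRTH2, the prostaglandin D2 receptor that marks Th2 cells, basophils and eosinophils in blood. *CCR4* is a chemokine receptor of Th2, regulatory and skin-homing T cells, *CXCR3* of Th1 cells, *CCR6* of Th17 cells and *CCR9* of gut-homing cells. *FOXP3* is the transcription factor of regulatory T cells, *CCR7* guides naive and central memory cells to lymph nodes, and *GZMB* encodes granzyme B of cytotoxic cells. CD3E+ cells were split by these 7 genes, with and without a UMI, and by the CD8 tag.

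Levels are given as counts per 1000000 (CPM), the UMIs of the gene over all UMIs in the cells of a group. Intervals for them come from the Poisson distribution, those for shares from the binomial (Clopper-Pearson), and those for log2 ratios of CPM from the binomial split of the pair of counts. All are exact 95% intervals. There was 1 animal and hence no test, and intervals speak of counting error alone, because its cells do not replicate it. A ratio whose interval leaves out 0 is said to lie beyond counting error.

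*GATA3* gave most UMIs of the 3 genes, *MAF* gave fewer and *PTGDR2* was close to absent. *GATA3* had 2158 UMIs in CD3E+ cells, 71.7 CPM (68.7 to 74.8). Of the 7311 cells 1676 held it, 22.9% (22.0 to 23.9). To compare cells at 1 depth, 2000 UMIs were drawn at random from each cell (thinning, which leaves out 376 shallower cells), and 13.0% then held it. *MAF* had 671 UMIs, 22.3 CPM (20.6 to 24.0), in 590 cells, 8.07% (7.46 to 8.72) or 4.50% after thinning. *PTGDR2* had 11 UMIs in 10 cells, 0.137% (0.0656 to 0.251). A UMI counts 1 end of a molecule, so transcript length does not enter these levels.

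Most cells with *GATA3* held a single UMI of it. There were 1341 such cells, 244 with 2 UMIs and 91 with 3 or more, up to 9 in 1 cell. *MAF* reached 3 UMIs in 4 cells, and 513 of its cells had 1. Free RNA in the droplets was gauged in 86 kept cells that had 3 or more B cell gene UMIs but lacked *CD3E*, *CD3D* and *CD3G* (B gene cells). Their median depth was 4121.5 UMIs against 3655 in CD3E+ cells. Choosing them without CD3 UMIs leaves out cells that caught free CD3 RNA, so shares in them may understate free T cell RNA. One of these 86 cells held *GATA3*, 1.16% (0.0294 to 6.31), and none held *MAF* or *PTGDR2*, which allows a share of up to 3.49% when 3 counts are taken as the limit of a count of 0. The shares of *GATA3* and *MAF* in CD3E+ cells lay above these limits, whereas 86 cells are too few to set a limit for a gene as sparse as *PTGDR2*. Of the genes used for the splits, *GZMB* was found in 44.8% of CD3E+ cells and in 8.14% (3.34 to 16.1) of the B gene cells. There it had 263 UMIs in 7 cells, and the source of these UMIs was not tested. *CCR4* was found in 2.41% and in 1.16% (0.0294 to 6.31), and *FOXP3* in 2.22% and in none. *CXCR3* was found in 15.0% and in 9.30% (4.10 to 17.5), *CCR6* in 7.62% and in 10.5% (4.90 to 18.9), and *CCR9* in 6.55% and in 3.49% (0.725 to 9.86). For these 5 genes the share in CD3E+ cells is not above what 86 cells allow, and the splits by them rest on such shares, whereas *CCR7*, at 29.6% and 18.6% (11.02 to 28.4), lay above it. Whether the B gene cells themselves made some of these UMIs, such as those of *CCR6* and *CCR7*, was not tested. A share that is not above the limit thus does not mark the UMIs in CD3E+ cells as free RNA.

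The genes lie apart in the Mmul_10 genome, on chromosome 9 from 9145130 to 9174939 (*GATA3*, plus strand), on chromosome 20 from 66641025 to 66647465 (*MAF*, minus strand) and on chromosome 14 from 13375182 to 13380279 (*PTGDR2*, plus strand). The 250 bases before the annotated starts of *GATA3* and *PTGDR2* are shown because UMIs of both genes fell in the same cells, as described below. They are read from the RefSeq reference of Mmul_10 in the gene's own direction, from 9144880 to 9145129 and from 13374932 to 13375181. Capitals mark the letters GATA on either strand, the core of the motif that GATA factors bind.
GATA3: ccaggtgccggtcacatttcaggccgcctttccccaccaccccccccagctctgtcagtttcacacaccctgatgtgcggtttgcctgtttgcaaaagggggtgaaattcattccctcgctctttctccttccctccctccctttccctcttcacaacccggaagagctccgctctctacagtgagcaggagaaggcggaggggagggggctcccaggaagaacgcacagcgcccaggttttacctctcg
PTGDR2: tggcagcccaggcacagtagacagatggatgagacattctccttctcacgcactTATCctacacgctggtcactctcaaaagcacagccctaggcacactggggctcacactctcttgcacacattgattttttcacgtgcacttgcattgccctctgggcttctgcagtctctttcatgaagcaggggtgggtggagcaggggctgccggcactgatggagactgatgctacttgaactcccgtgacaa
The longer form, with A or T before GATA and A or G after it, occurred in none of the 3 promoters on either strand and in 21.1% of 20782 promoters of this length. GATA alone, which overlaps the longer form, occurred once before *PTGDR2*, on the minus strand 196 bases before the start, in neither of the other 2, and in 44.3% of all promoters. TGCTGAC, the core of the element that Maf proteins bind, occurred in none of the 3 on either strand and in 2.96% of all. These are matches of letters and not measured sites.

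Among the 7 genes, *CCR4* went with the largest difference in *GATA3*. The 176 CD3E+ cells with a *CCR4* UMI held 139.6 CPM of *GATA3* (117 to 165), and the 7135 cells without held 69.4 CPM (66.4 to 72.5), a log2 ratio of 1.01 (0.75 to 1.26). *GATA3* was found in 42.0% of the cells with *CCR4* (34.7 to 49.7) and in 22.5% of the cells without (21.5 to 23.4). After thinning these shares were 21.8% (15.8 to 28.7) and 12.7% (11.96 to 13.6), so they stayed apart at equal depth. The 37 cells with 2 to 5 *CCR4* UMIs had 170.6 CPM and the 139 cells with 1 UMI had 130.3 CPM, but their intervals overlap (121 to 234 and 106 to 159). *MAF* did not differ beyond counting error between cells with and without *CCR4*, at 26.9 and 22.1 CPM, a log2 ratio of 0.28 (−0.34 to 0.85). *GATA3*, *CCR4* and *PTGDR2* were named together as Th2 genes of these same cells by the study, so their association here is not independent evidence of it.

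*GATA3* was lower in cells with *CCR7* or *GZMB*, while *MAF* was lower with *CCR7* and higher with *GZMB*. In the 2163 cells with *CCR7*, *GATA3* had 60.9 CPM (56.3 to 65.8) against 77.6 (73.7 to 81.6) in the 5148 without, a log2 ratio of −0.35 (−0.48 to −0.21). *MAF* was also lower there, at 15.5 CPM (13.2 to 18.0) against 26.0 (23.8 to 28.4), a log2 ratio of −0.75 (−1.01 to −0.49). In the 3273 cells with *GZMB*, *GATA3* had 63.2 CPM (58.9 to 67.8) against 77.7 (73.7 to 82.0), a log2 ratio of −0.30 (−0.43 to −0.17). *MAF* was higher with *GZMB*, at 29.4 CPM (26.4 to 32.5) against 17.2 (15.3 to 19.2), a log2 ratio of 0.77 (0.55 to 0.996). After thinning, *MAF* was found in 5.52% of cells with *GZMB* (4.74 to 6.38) and in 3.68% of cells without (3.103 to 4.32).

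Split by the other 3 chemokine receptors and *FOXP3*, *GATA3* did not differ beyond counting error, and *MAF* did by *CCR9* and *CXCR3*. *GATA3* had log2 ratios of 0.01 by *CXCR3* (−0.16 to 0.17), 0.06 by *CCR6* (−0.15 to 0.25) and 0.14 by *CCR9* (−0.07 to 0.35). In the 162 cells with *FOXP3* it had 53.4 CPM (38.7 to 72.0) against 72.2, a log2 ratio of −0.43 (−0.90 to 0.00), and 35.0 CPM (16.8 to 64.3) in the 56 of them with 2 to 7 *FOXP3* UMIs, an interval below the level without *FOXP3*. The median CD8 tag of the 162 cells was 195 UMIs, against 345 in cells without *FOXP3*. *MAF* was lower in the 479 cells with *CCR9*, at 15.4 CPM (11.1 to 20.9) against 23.0, a log2 ratio of −0.57 (−1.07 to −0.12). It was higher in the 1100 cells with *CXCR3*, at 26.4 CPM (22.2 to 31.2) against 21.4, a log2 ratio of 0.30 (0.02 to 0.58). That ratio fell to 0.02 when cells and splits were both thinned to 2000 UMIs. *CCR6* and *FOXP3* gave *MAF* ratios of −0.01 (−0.38 to 0.35) and −0.17 (−0.98 to 0.54).

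The same pairs read differently when the cells were split by *GATA3* or *MAF* instead. Cells with *GATA3* had more *CCR6*, by a log2 ratio of 0.61 (0.40 to 0.82), more *CCR9*, by 0.52 (0.31 to 0.72), and less *FOXP3*, by −0.59 (−1.05 to −0.14), than cells without, all beyond counting error. Cells with *MAF* had 28.4 CPM of *CCR9* against 29.1, a log2 ratio of −0.04 (−0.39 to 0.29), so the lower *MAF* with *CCR9* was not seen from that side. They had more *CCR6*, by 0.40 (0.08 to 0.70), and more *CXCR3*, by 0.39 (0.15 to 0.63). These pairs, other than *MAF* with *CXCR3*, thus lay beyond counting error from 1 side only. Cells with *GATA3* were deeper, with a median of 4109.5 UMIs against 3555, as were those with *MAF*, at 3948 against 3632. These reverse splits were not thinned. Split by raw *CCR6* UMIs, thinned *GATA3* was found in 12.8% of cells with (10.1 to 15.9) and 13.0% without. By *CCR9* the thinned shares were 13.7% (10.7 to 17.2) and 12.9%, and by *FOXP3* 10.5% (6.23 to 16.3) and 13.0%.

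**Figure D1:**
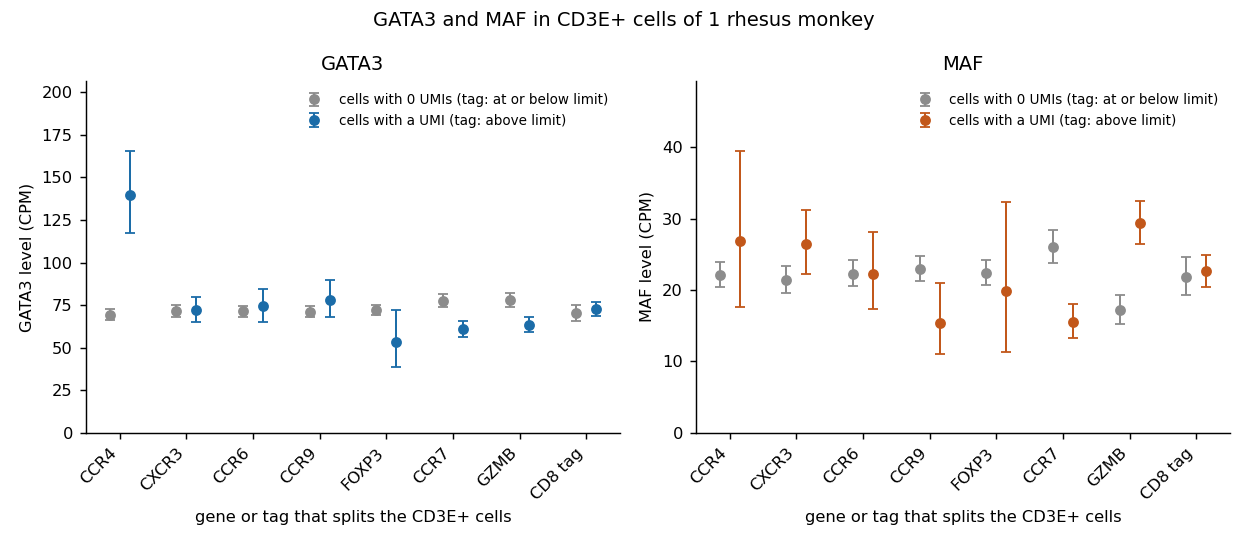
Summed level of *GATA3* (left) and *MAF* (right) in CPM, on linear axes from 0, in CD3E+ cells with a UMI of the gene on the x axis, or a CD8 tag above its limit (coloured), and in the other CD3E+ cells (grey). Bars are 95% Poisson intervals of the counts. *GATA3* stands at 139.6 CPM with *CCR4*, and *MAF* at 29.4 CPM with *GZMB* against 17.2 without.

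Of all UMIs of *GATA3* and *MAF* together, *MAF* made up 31.7% in cells with *GZMB* (29.0 to 34.5) and 18.1% in cells without (16.3 to 20.05). The share was 16.1% with *CCR4* (10.8 to 22.8) and 16.5% with *CCR9* (12.1 to 21.7), against 24.2% and 24.4% without. By CD8 tag it was 23.8% above the limit (21.7 to 25.9) and 23.7% at or below it (21.2 to 26.2).

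The 7 genes overlap in the same cells, so cells were also divided into disjoint groups by which of them had a UMI. The 7 genes gave 78 combinations, of which 14 held at least 50 cells and 6843 cells in all (93.6% of CD3E+ cells). The 53 cells with *CCR4* as their single one of the 7 genes had the highest *GATA3*, 269.9 CPM (207 to 346). Of these cells 31 had no *GATA3* UMI, 6 had 1, 5 had 2 and 11 had 3 or more, and without the cell with 9 UMIs the level was 236.7 CPM (177 to 310). The 52 cells with *CCR4* and *CCR7* had 106.3 CPM (70.1 to 155). The 1259 cells with none of the 7 genes came next at 95.7 CPM (87.1 to 105), and the lowest level was 28.4 CPM (13.6 to 52.1) in the 81 cells with *FOXP3* and *CCR7*. In this order, 1 of the 13 steps between neighbours lay beyond counting error, that from *CCR4* alone to *CCR4* with *CCR7*, with a log2 ratio of 1.34 (0.67 to 2.05).

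Against the cells with none of the 7 genes, *GATA3* was higher beyond counting error in 1 of the 13 other groups, *CCR4* alone, by a log2 ratio of 1.495 (1.09 to 1.88), and lower in 9. It was lower with *GZMB* alone, by −0.66 (−0.84 to −0.47), with *CCR7* alone, by −0.69 (−0.90 to −0.48), and with *FOXP3* and *CCR7*, by −1.76 (−2.83 to −0.86). *CXCR3* alone, at 74.1 CPM, gave the smallest of these 9 differences, a log2 ratio of −0.37 (−0.70 to −0.05). In cells with neither *CCR7* nor *GZMB*, *GATA3* had 95.9 CPM (89.5 to 103), and cells with *CCR7* or with *GZMB* had 59.8 CPM (54.8 to 65.2) or 62.7 CPM (58.1 to 67.7). With both it was 66.2 CPM (55.0 to 79.0), not below either gene by itself. Doublets were not removed, and their part in the cells with both was not tested.

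The order of *MAF* over the same 14 groups was another one. It was highest in the 426 cells with *CXCR3* and *GZMB*, at 40.0 CPM (31.1 to 50.7), then in *CCR4* with *CCR7*, at 35.4 CPM (16.2 to 67.3, from 9 UMIs), and in *GZMB* alone, at 29.8 CPM (26.2 to 33.7). *CCR4* alone had 4.35 CPM (0.110 to 24.3), from 1 UMI in 53 cells, and *FOXP3* with *CCR7* had 2.84 CPM (0.0718 to 15.8), also from 1 UMI. None of the 13 steps between neighbours lay beyond counting error, so only distant groups can be told apart. Against the cells with none of the 7 genes, at 20.3 CPM (16.5 to 24.9), *MAF* was higher with *CXCR3* and *GZMB*, by a log2 ratio of 0.98 (0.51 to 1.44), and with *GZMB* alone, by 0.55 (0.20 to 0.91). It was lower with *CCR7* alone, by −0.63 (−1.09 to −0.17), with *CCR9* and *CCR7*, by −1.41 (−3.07 to −0.14), and with *FOXP3* and *CCR7*, by −2.84 (−8.16 to −0.33).

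**Figure D2:**
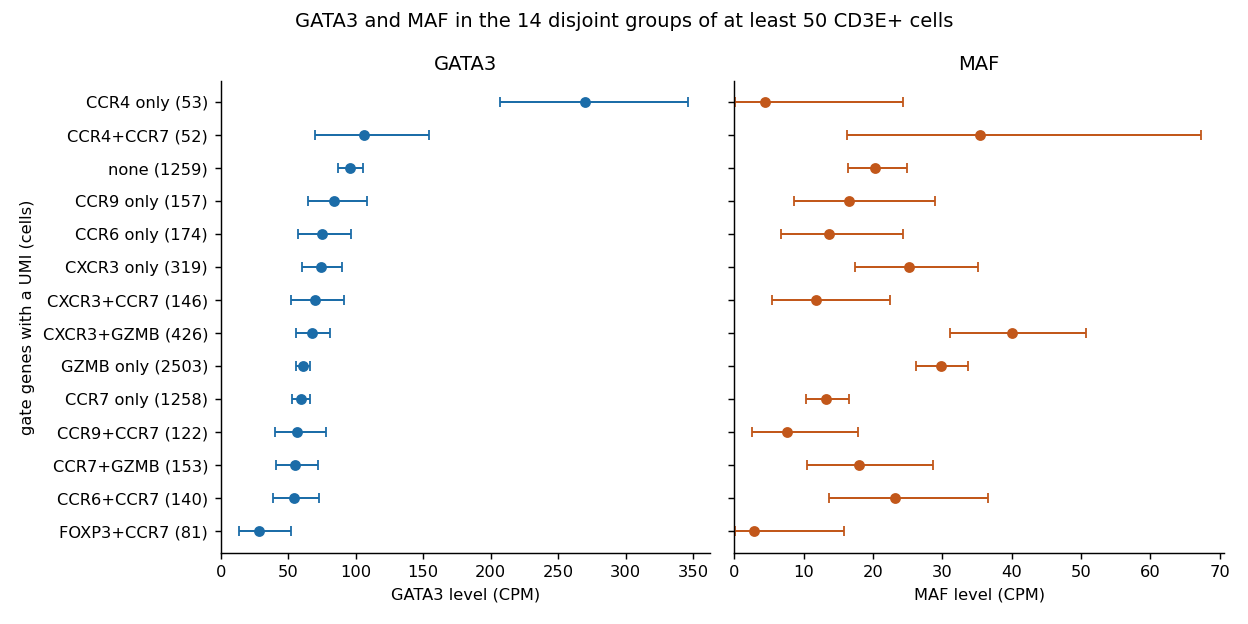
Level of *GATA3* (left) and *MAF* (right) in CPM in the 14 disjoint groups of at least 50 CD3E+ cells, named by the genes of the 7 that had a UMI, with the number of cells, in the order of *GATA3*. Bars are 95% Poisson intervals. *GATA3* is highest with *CCR4* alone (269.9 CPM), where *MAF* rests on 1 UMI, and *MAF* is highest with *CXCR3* and *GZMB* (40.0 CPM).

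The association of *GATA3* with *CCR4* was larger outside the *CCR7* cells than within them, with intervals that do not overlap. Among the 5148 cells without *CCR7*, those with *CCR4* had 193.3 CPM of *GATA3* (156 to 237) against 74.6 (70.8 to 78.6), a log2 ratio of 1.37 (1.05 to 1.68). Among cells with *CCR7* the values were 86.5 CPM (62.3 to 117) and 59.7 CPM (55.1 to 64.7), a log2 ratio of 0.53 (0.05 to 0.99). Split by each of the other 6 genes in turn, with and without a UMI, the ratio was above 0 in 11 of 12 settings and beyond counting error in 7, and it ranged from −0.14 in cells with *CCR9* (11 UMIs in 18 cells with *CCR4*) to 1.37. For *MAF* by the same split, it was in the cells with *CCR7* that *CCR4* went with a difference, at 35.0 CPM (20.4 to 56.0) against 14.6 (12.3 to 17.1), a log2 ratio of 1.27 (0.45 to 1.99). That value rests on 17 *MAF* UMIs in 13 cells. In cells without *CCR7*, *MAF* had 18.7 CPM with *CCR4* (8.55 to 35.5) and 26.2 CPM without, a log2 ratio of −0.49 (−1.62 to 0.45). Over the 12 settings the ratio of *MAF* by *CCR4* was above 0 in 9 and beyond counting error in 3. Besides the cells with *CCR7*, these were cells without *GZMB* and cells with *FOXP3*. Without *GZMB*, *MAF* had 27.6 CPM with *CCR4* and 16.7 without, a log2 ratio of 0.73 (0.04 to 1.34). With *FOXP3* the ratio was 2.12 (0.37 to 3.72), on 6 *MAF* UMIs in 11 cells with *CCR4*.

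The ratio of *MAF* by *GZMB* was above 0 in 10 of the 12 such settings, which share cells too, and its interval lay above 0 in 7. It was 0.64 in cells without *CCR7* (0.37 to 0.91) and 0.47 in cells with *CCR7* (−0.10 to 1.004). The ratio of *GATA3* by *GZMB* was below 0 in 10 of the 12 settings and beyond counting error in 6. Divided by *CCR7*, *GATA3* was lower with *GZMB* in the cells without *CCR7* and not in those with it, and here too the intervals do not overlap. Without *CCR7* its log2 ratio was −0.61 (−0.76 to −0.46), whereas with *CCR7* it was 0.15 (−0.15 to 0.43). The 153 cells with *CCR7* and *GZMB* and none of the other split genes had a median of 6146 UMIs and a median CD8 tag of 668. With *GZMB* alone these medians were 3204 and 330, and with *CCR7* alone 4050 and 330. Doublets were not removed, and their part in the cells with both genes was not tested.

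Levels also followed the number of *GZMB* and *CCR7* UMIs per cell. *MAF* had 17.2 CPM at 0 *GZMB* UMIs, 18.97 at 1, 28.3 at 2 to 4, 29.8 at 5 to 9, 30.8 at 10 to 19 and 32.3 (25.6 to 40.2) at 20 to 146. *GATA3* had 77.7, 85.8, 70.4, 64.0, 59.3 and 52.8 CPM (44.2 to 62.7) in the same 6 classes. *MAF* was thus higher from 2 *GZMB* UMIs on, while *GATA3* was lowest in the cells with most *GZMB*. By *CCR7*, *GATA3* had 77.6 CPM at 0 UMIs, 69.6 at 1, 54.1 at 2 to 3 and 53.2 (42.2 to 66.1) at 4 to 13. *MAF* had 26.0, 15.7, 15.8 and 13.8 CPM (8.53 to 21.1), a drop between 0 and 1 *CCR7* UMI with no further difference beyond counting error.

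**Figure D3:**
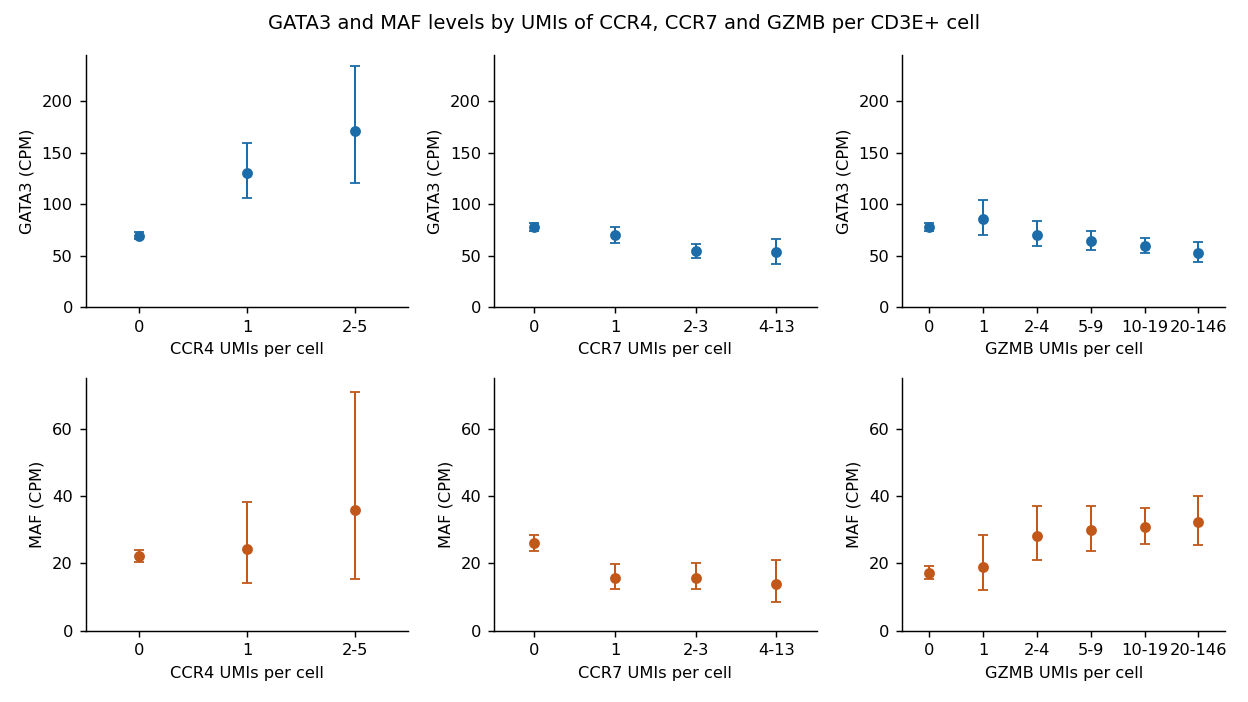
Level of *GATA3* (top) and *MAF* (bottom) in CPM, on linear axes from 0, by the number of UMIs of *CCR4* (left), *CCR7* (middle) and *GZMB* (right) in a CD3E+ cell. Bars are 95% Poisson intervals. *MAF* goes from 17.2 CPM without *GZMB* to 32.3 CPM at 20 or more *GZMB* UMIs, and *GATA3* from 77.7 to 52.8 CPM.

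Genes of other cell types moved with some of these splits. The 5 B cell genes together had 95.1 CPM in cells with *CCR4* (76.7 to 117) and 71.5 without. They were further apart by *CCR6*, at 153.5 CPM with and 62.8 without, by *CCR9*, at 142.9 and 65.4, and by *CCR7*, at 126.55 and 42.6. By CD8 tag they had 101.6 CPM above the limit and 31.8 at or below it. By *CXCR3* they had 90.2 and 68.5 CPM, and they were lower with *FOXP3*, at 39.8 and 73.2, and with *GZMB*, at 68.6 and 74.9. The 4 NK cell genes had 6.21 CPM (2.28 to 13.5) with *CCR4* and 74.6 without. By *GZMB* the NK cell genes had 155.0 CPM (148 to 162) with and 12.9 without. *KLRF1*, one of the 4, had 2144 UMIs and was found in 20.5% of CD3E+ cells, while *NCAM1* had 5 UMIs in all. The 3 monocyte genes stayed between 1.03 and 4.51 CPM and the 2 platelet genes between 0 and 0.635 CPM on either side of the 7 genes. The 2 globin genes had 12.4 CPM with *CCR4* and 247.0 without, and 94.7 with *GZMB* and 343.6 without, and the 2660 *HBB* UMIs among them fell in 11 cells. By share of cells the order by *GZMB* was turned, with a globin UMI in 24.4% of cells with *GZMB* and in 2.1% without. By *CCR4* these shares were 4.55% and 12.3%. Of 4 basophil genes found among the features, *HDC* and *CPA3* were at 0, *MS4A2* had 8 UMIs and *FCER1A* had 1. Of these 9 UMIs 7 were in cells with *GATA3* and 3 in cells with *CCR4*. The proliferation genes *MKI67* and *RRM2* together had 70.3 CPM with *CCR4* and 15.5 without, and 60.9 CPM in cells with *MAF* and 12.7 in cells without. Their 68 UMIs with *CCR4* fell in 8 cells, 4.55% of these cells against 3.27% of those without. By *MAF* the shares of cells were 8.31% and 2.86%. Leaving out cells with any B cell gene UMI gave log2 ratios of 1.12 for *GATA3* by *CCR4* and 0.72 for *MAF* by *GZMB*, leaving out cells with *MKI67* or *RRM2* gave 1.07 and 0.76, and leaving out cells with any NK cell gene UMI gave 0.99 and 0.79. Over these 3 sets of cells left out, *MAF* by *CCR4* ranged from 0.02 to 0.41 and *MAF* by *CXCR3* from 0.13 to 0.27, against 0.28 and 0.30 in all CD3E+ cells. The part of the globin and basophil genes was not tested.

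The cells with *PTGDR2* nearly all held *GATA3*. In the 10 cells with *PTGDR2*, the numbers of *GATA3* UMIs were 9, 7, 3, 2, 2, 1, 1, 1, 1 and 0. The cells with 9 and 7 UMIs were the 2 highest of all 7311 CD3E+ cells in *GATA3*. A *GATA3* UMI was thus found in 9 of 10 cells, 90% (55.5 to 99.7), against 22.8% (21.9 to 23.8) of the cells without *PTGDR2* and 28.6% (27.1 to 30.03) of the 3723 among them that were at least as deep as the shallowest of the 10. *GATA3* had 439.6 CPM (290 to 640) in the cells with *PTGDR2* and 70.9 CPM in the others, a log2 ratio of 2.63 (2.03 to 3.18). The median depth was 5052.5 UMIs with *PTGDR2* and 3653 without.

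Each of the 7 genes of the splits was found in 0 to 3 of the 10 cells. *CCR4* was found in 3 of them, *GZMB* in 3, *CCR6* in 2, *CCR7* in 2, *CXCR3* in 1, and *CCR9* and *FOXP3* in none. *MAF* was found in 1. *IL4R*, a chain of the interleukin-4 receptor, was found in 7, and its level was 260.5 CPM (149 to 423) against 111.6, a log2 ratio of 1.22 (0.41 to 1.92). No UMI of *MS4A2* or *FCER1A*, genes of basophils, which also carry CRTH2, was found in the 10 cells, and CD8 tags lay above the limit in 7 of them. *PTGDR2* was found in 3 of the 176 cells with *CCR4*, 1.70% (0.353 to 4.90), and in 7 of the 7135 without, 0.0981% (0.0395 to 0.202). The ratio of its CPM was 11.3-fold with a wide interval (1.93 to 47.1), from 3 and 8 UMIs.

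Read from the side of *GATA3*, cells with 3 to 9 *GATA3* UMIs stood apart from the rest in *CCR4* and *GZMB*. *PTGDR2* was found in 3 of these 91 cells, 3.30% (0.685 to 9.33), and in 0.820% (0.0994 to 2.93) of the cells with 2 *GATA3* UMIs. It was found in 0.298% (0.0813 to 0.762) of the cells with 1 and in 1 of the 5635 cells with none, 0.0177% (0.000449 to 0.0988). For *PTGDR2* the intervals at 1, at 2 and at 3 to 9 *GATA3* UMIs overlap. *CCR4* was found in 18.7% of the 91 cells (11.3 to 28.2), against 4.51% (2.27 to 7.92) at 2 UMIs, 3.43% (2.52 to 4.55) at 1 and 1.81% (1.48 to 2.19) at 0. *GZMB* was found in 23.1% of them (14.9 to 33.1), against 42.6% (36.3 to 49.1) at 2 UMIs, 38.9% (36.2 to 41.5) at 1 and 46.6% of the cells without *GATA3*. *CXCR3* was found in 15.4% (8.67 to 24.5) and *CCR7* in 29.7% (20.6 to 40.2), near the 14.4% and 29.2% of the cells without *GATA3*. At 2 *GATA3* UMIs, however, *CXCR3* was found in 23.8% (18.6 to 29.6), an interval above that at 0 (13.5 to 15.4), and *CCR7* in 25.4% (20.1 to 31.4). *CCR6* was found in 6.57% (5.93 to 7.24) at 0 *GATA3* UMIs and 11.2% (9.55 to 13.0) at 1, and *CCR9* in 5.61% (5.02 to 6.24) and 9.47% (7.96 to 11.2), and neither rose further, at 10.99% and 9.89% in the 91 cells. The 91 cells were also deeper, with a median of 5313 UMIs against 3555 at 0 *GATA3* UMIs, so the shares are not at equal depth.

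**Figure D4:**
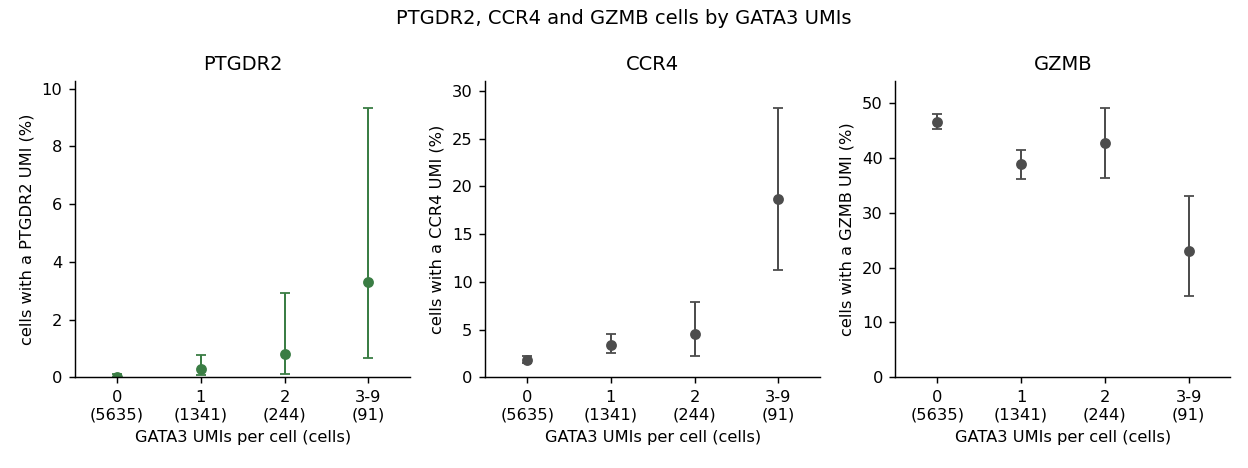
Share of CD3E+ cells with a UMI of *PTGDR2* (left), *CCR4* (middle) and *GZMB* (right), in percent, by the number of *GATA3* UMIs per cell, with the number of cells in brackets. Bars are 95% binomial intervals. *CCR4* is found in 18.7% of the 91 cells with 3 to 9 *GATA3* UMIs and in 1.81% of those with none.

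*GATA3* and *MAF* were not found in the same cells more or less often beyond counting error. *GATA3* was found in 26.1% of the cells with *MAF* (22.6 to 29.8) and in 22.6% of those without (21.6 to 23.7), and after thinning in 12.2% (8.76 to 16.3) and 13.0% (12.2 to 13.8). In CPM, *GATA3* had a log2 ratio of −0.15 by *MAF* (−0.38 to 0.07) and *MAF* had 0.00 by *GATA3* (−0.26 to 0.25). *MAF* was found in 4.40% of the 91 cells with 3 or more *GATA3* UMIs and in 7.74% of the cells with none.

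The CD8 tag, which counts CD8 on the surface, went with no difference beyond counting error in either gene. The limit was set at 330.5 tag UMIs, which 90% of the 86 B gene cells did not pass, and 3778 CD3E+ cells did. *GATA3* had 72.6 CPM above this limit (68.6 to 76.7) and 70.4 at or below it (65.9 to 75.2), a log2 ratio of 0.04 (−0.08 to 0.17). *MAF* had 22.6 CPM (20.4 to 24.97) and 21.8 (19.3 to 24.6), a log2 ratio of 0.05 (−0.17 to 0.28). The raw share of cells above the limit was higher with a *GATA3* UMI, 58.5% (56.1 to 60.8) against 49.7% (48.3 to 51.0), but the cells above the limit were also deeper, with medians of 4008.5 and 3399 UMIs. In cells above the limits of both tags, 49.1% of CD3E+ cells, *GATA3* had 73.0 CPM and *MAF* 23.0 CPM, and in cells above the CD4 limit alone, 44.7%, they had 70.9 and 22.2 CPM.

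Across 10 bins of CD8 tag with 726 to 738 cells each, *GATA3* ranged from 62.4 CPM (53.2 to 72.7) in the third to 87.5 CPM (77.0 to 98.97) in the seventh, with no steady order. *MAF* was lowest in the first bin, at 15.9 CPM (11.4 to 21.7), and highest in the fifth, at 28.3 CPM (22.4 to 35.4). For both genes the intervals of the lowest and the highest bin do not overlap, though these bins were picked as the extremes of 10. The first bin also held most *CCR7* cells, 46.5%, and fewest *GZMB* cells, 20.5%.

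Within the splits, the tag went with differences in few places. Of 28 such comparisons, 2 genes on both sides of 7 splits, 4 lay beyond counting error. In cells with *CCR4*, *GATA3* had 117.8 CPM (92.3 to 148) above the tag limit and 178.6 CPM (137 to 229) at or below it, a log2 ratio of −0.60 (−1.11 to −0.09). In cells with *CCR9* the order was turned, at 85.6 CPM (73.0 to 99.8) and 59.1 CPM (43.0 to 79.4), a log2 ratio of 0.53 (0.05 to 1.05). *MAF* was higher above the limit in cells with *CCR7*, at 17.6 and 11.6 CPM, a log2 ratio of 0.60 (0.09 to 1.13), and in cells without *GZMB*, at 19.01 and 14.8 CPM, a log2 ratio of 0.36 (0.02 to 0.71). All 4 intervals come near 0.

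**Figure D5:**
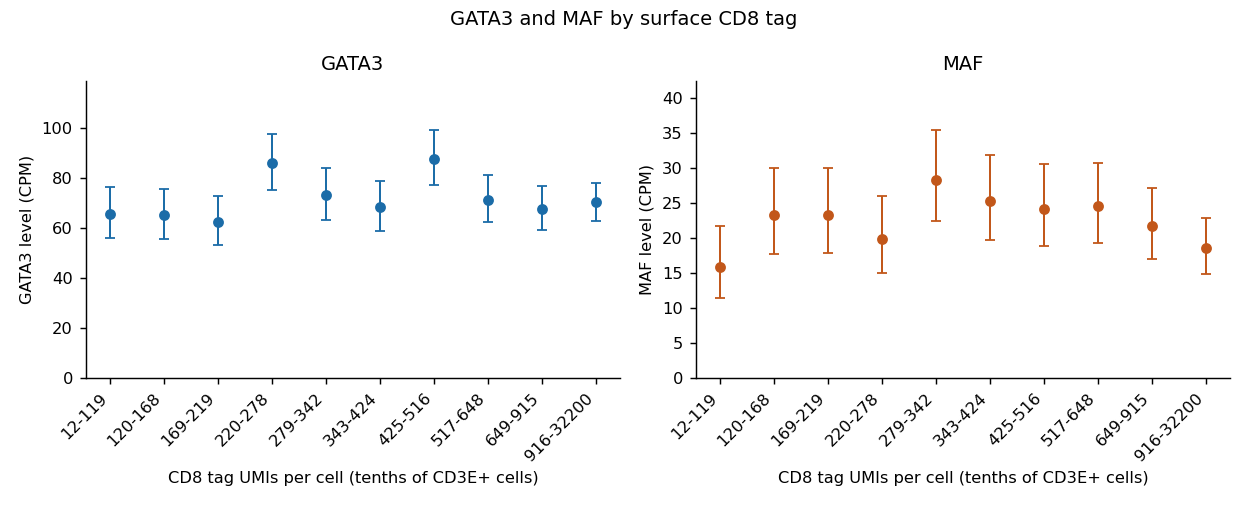
Level of *GATA3* (left) and *MAF* (right) in CPM, on linear axes from 0, in 10 bins of CD3E+ cells by CD8 tag UMIs. Bars are 95% Poisson intervals. *GATA3* runs between 62.4 and 87.5 CPM and *MAF* between 15.9 and 28.3 CPM without a steady order.

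Genes that act beside the 3 were mostly rare. Of 20 genes of the Th2 pathway, 10 had the 50 UMIs in CD3E+ cells needed for a comparison. *IL4* had 54 UMIs in 52 cells and *IL5* had 4, while *IL13* and *IL9*, further type 2 cytokines, had none, where a count of 0 leaves room for 0.0410% of cells with a UMI. The receptors *IL1RL1* for IL-33, *IL17RB* for IL-25 and *CRLF2* for TSLP had 14, 10 and 15 UMIs. Of these UMIs 4, 3 and 6 fell in the 176 cells with *CCR4*, which gave log2 ratios of 3.59 (1.46 to 5.39), 3.69 (1.11 to 5.82) and 4.33 (2.56 to 5.98) by *CCR4*, all 3 higher beyond counting error on these few counts. *CCR8* and *PPARG* had 3 each. *IL4R* and *STAT6*, the receptor chain and the signal transducer of IL-4, had 111.9 and 46.5 CPM.

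A gene was counted as higher or lower when its CPM differed by 1.5-fold or more, which is a rule of size and not a test. Between cells with and without *CCR4*, 10.4% of 10018 genes with at least 50 UMIs were higher by this rule and 13.7% lower. Of the 9 Th2 pathway genes other than *CCR4* with that many UMIs none was higher and 3 were lower, with a median log2 ratio of −0.37 (−0.45 without *IL4*, which had 0 UMIs on 1 side) against −0.01 over all genes. The 3 were *GFI1* and *NFIL3*, at −1.73 (−3.61 to −0.36) and −1.30 (−2.51 to −0.31), and *DUSP6*, on 1 UMI with *CCR4*. *IL4* had 0 of its 54 UMIs in the cells with *CCR4*, which hold too few UMIs to show a difference in it. *IL4R* and *JUNB*, an AP-1 subunit active in Th2 cells, had ratios of 0.32 (0.06 to 0.57) and 0.46 (0.35 to 0.57). A mixed list of 12 genes of other T cell states had 9 that were lower and 1 that was higher, with a median of −1.76. *TBX21* was among the lower, at −2.45 (−4.08 to −1.22), and *LEF1* was higher, at 0.88 (0.66 to 1.09).

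Between cells with and without *GZMB*, 18.1% of genes were higher and 8.7% lower, with a median log2 ratio of 0.20. Of 10 Th2 pathway genes 4 were higher and 3 lower. *IL4* was higher, with 46 of its 54 UMIs in cells with *GZMB*, a log2 ratio of 2.998 (1.90 to 4.29). *GFI1* and *NFIL3*, transcription factors also used outside Th2 cells, were higher by 3.20 and 1.39, and *DUSP6*, a phosphatase of the ERK pathway, by 0.86. Lower were *CCR4*, at −2.69 (−3.38 to −2.06), *JUNB*, at −0.82, and *IL4R*, at −0.60 (−0.71 to −0.50). The 12 genes of other T cell states included 9 that were higher, among them *TBX21* of Th1 and cytotoxic cells at 3.02, *RUNX3* at 2.20 and *ZBTB7B* at 0.96. The list had 2 that were lower, *LEF1* and *TCF7* of naive cells, at −2.28 and −1.87. The 12 genes had a median of 2.55. *MAF*, at 0.77, was higher by the same rule, and *GATA3*, at −0.30, was not past it.

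Between cells with and without *CCR7*, 6.41% of genes were higher and 13.4% lower, with a median log2 ratio of −0.16. Of 10 Th2 pathway genes 2 were higher, *CCR4* at 0.83 (0.44 to 1.22) and *JUNB* at 0.73, and 4 were lower, among them *IL4* at −3.22 (−5.54 to −1.59), with 3 UMIs in cells with *CCR7*, and *GFI1* at −1.95. Of the 12 genes of other T cell states 2 were higher, *LEF1* at 1.77 and *TCF7* at 1.13, and 8 lower. *MAF* was lower by this rule and *GATA3* was not, at −0.75 and −0.35.

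The 13 genes associated with *MAF* in other T cells, 11 of them with enough UMIs, were divided by the same splits. By *CCR4*, 5 were higher and 2 lower, against 10.4% and 13.7% of all genes, with a median of 0.54 (0.67 without *BCL6*, which had 0 UMIs on 1 side) against −0.01. *CXCL13*, a chemokine of follicular helper cells found in 73 cells, had a log2 ratio of 3.79 (3.41 to 4.16) and *IL23R* one of 2.33, and *CTLA4*, *CXCR5* and *ICOS* lay between 0.80 and 1.02. Its interval takes the 283 *CXCL13* UMIs, 89 of them with *CCR4*, as independent and does not cover their clumping in few cells. *PDCD1* and *PRDM1* were lower, at −0.95 and −0.65. By *GZMB*, where 18.1% of all genes were higher and 8.7% lower, 5 were higher, led by *PDCD1* at 2.17 and *BCL6* at 2.03, and 5 were lower, led by *CXCL13* at −2.77 and *IL23R* at −2.29, with a median of 0.24 against 0.20 over all genes. By *CCR7*, where 6.41% of all genes were higher and 13.4% lower, 4 were higher, led by *CXCR5* at 1.91 and *CTLA4* at 1.47. Another 5 were lower, led by *PDCD1* at −1.69 and *PRDM1* at −1.49, and the median was −0.13 against −0.16 over all genes.

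Between cells with and without *MAF* itself, 4.55% of genes were higher and 5.46% lower. Of the 11 associated genes, 1 was higher, *CXCL13*, at 17.5 and 8.55 CPM with a log2 ratio of 1.03 (0.56 to 1.48), and none was lower. As by *CCR4*, this interval does not cover the clumping of *CXCL13* UMIs in few cells. The median of the 11 was 0.30 against 0.05 over all genes. *TIGIT* and *PDCD1*, inhibitory receptors, had 0.50 (0.31 to 0.69) and 0.44 (0.29 to 0.57), below 1.5-fold but beyond counting error. *IL10*, a cytokine that *MAF* is known to induce, had 48 UMIs in 26 cells and *IL21* had 18, below the minimum for the comparison. Of 10 Th2 pathway genes 2 were higher with *MAF* and none lower, with a median of 0.27. The 2 were *IL4*, at 0.73 (−0.56 to 1.83), and *DUSP6*, at 1.48 (0.42 to 2.44). Of the 12 genes of other T cell states 1 was higher, *IFNG* at 0.62 (0.03 to 1.18), and 1 lower, *EOMES* at −0.66 (−1.23 to −0.13).

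Between cells with and without *GATA3*, 1.73% of genes were higher and 1.72% lower. Of 10 Th2 pathway genes 2 were higher, *CCR4* at 1.19 (0.80 to 1.58) and *DUSP6* at 0.62 (−0.28 to 1.47), and *GFI1* was lower at −0.60 (−0.98 to −0.24), with a median of −0.02 against 0.00 over all genes. *IL4R* had 127.4 and 106.2 CPM, a ratio of 0.26 (0.15 to 0.37). Of the 12 genes of other T cell states none was higher and 2 were lower, *PRF1*, which encodes perforin, at −0.64 (−0.80 to −0.48) and *EOMES* at −0.59 (−0.93 to −0.27). Of the 11 genes associated with *MAF*, none was higher or lower by 1.5-fold, with a median of 0.04.

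Close relatives of the 3 genes were read from the same cells. *GATA1*, *GATA2*, *MAFA* and the prostacyclin receptor gene *PTGIR* had no UMI, so *GATA3* was the one of these 3 GATA genes detected. *NRL*, a large Maf gene, had 2.52 CPM. The small Maf genes *MAFF*, *MAFG* and *MAFK* had 5.38, 5.68 and 3.95 CPM. *PTGDR*, the other prostaglandin D2 receptor gene, had 393 UMIs in 4.95% of cells, against 11 for *PTGDR2*. *PTGDR* was higher with *GZMB*, at 26.6 and 3.31 CPM with a log2 ratio of 3.004 (2.60 to 3.43), and higher with *MAF*, by 0.63 (0.20 to 1.05), while *PTGDR2* had 3 of its 11 UMIs in cells with *GZMB*, a log2 ratio of −0.94 (−3.49 to 1.12) that places it on neither side. *PTGER4*, a receptor for prostaglandin E2, was found in 52.6% of cells. It had log2 ratios of 0.46 by *CCR4* (0.29 to 0.63) and −0.55 by *GZMB* (−0.62 to −0.48).

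Over the 14 disjoint groups, the genes whose log2(CPM + 10) was most like that of *GATA3* among 5261 genes with at least 500 UMIs were *TRAF7* (Pearson r 0.90), *MX1* (0.89), *CENPS-CORT* (0.88), *DALRD3* (0.88) and *CD46* (0.88). Those most like *MAF* were *ABHD12* (0.94), *BOLA3* (0.94), *MOSPD3* (0.91), *PSMD9* (0.91) and *ANP32E* (0.91). The r between *GATA3* and *MAF* themselves was −0.01. The groups differ in size from 52 to 2503 cells and share 1 library, and *GATA3* in the group with *CCR4* alone stands far above the rest. *MAF* rests on 1 UMI with *CCR4* alone and on 1 with *FOXP3* and *CCR7*. Each list holds the highest of 5261 values over 14 groups, and such a choice alone gives high values. The values of r are thus descriptions of this library.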

How the data were processed

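RNA and antibody tag libraries came from the same cells of 1 monkey, so there was 1 sample and no test between samples. The authors deposited raw UMI counts per gene and per tag. Per the labels and the submitters' processing notes these came from Cell Ranger 3.1.0 with STAR 2.5.1b and the Mmul_10 genome, and Seurat 3.1.3 is also named. From these counts, barcodes were kept at 200 to 4000 genes and a mitochondrial share of 20% or less, and genes where 3 or more barcodes held them. The mitochondrial genes were 13 with symbols and 2 without, a choice that gives the study's cell number. Of 35432 genes 23817 carried a symbol in the deposited table, and 720 more were named from the reference annotation. Doublets were not removed. The file's total UMIs per cell set the precision, and intervals cover counting error only.

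Levels are summed UMIs per 1000000 (CPM) with exact Poisson intervals, shares have exact Clopper-Pearson intervals, and ratios have exact binomial intervals, all at 95%. The interval script was tested on simulated independent counts, which hold no clumping of UMIs in the same cells, so the test does not speak to such clumping here. Genes with 0 UMIs on 1 side were set at 3 counts. Named genes were the 3 members, the 7 split genes, fixed lists of genes and the 5 genes most like each member over the disjoint groups. A pair of genes was taken out of these lists before counting and is not reported here. Members and lists were chosen with earlier results of these data known, and the study itself used *GATA3*, *CCR4*, *IL4R* and *PTGDR2* as Th2 genes on these cells. Alternatives changed depth, the cell filters, the splits and the tag limit. Python 3.11.15, numpy 2.4.6, scipy 1.17.1, pandas 2.3.3 and matplotlib 3.10.9 were used.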

Additional observations from a re-analysis of the deposited data

Results flagged for a closer look

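*GATA3* and *MAF* were also found outside the CD3E+ cells, in barcodes that no comparison above uses. Of the 322 barcodes removed by the cell filters, 18.6% held *GATA3* (14.5 to 23.3) and 5.59% held *MAF* (3.35 to 8.69), above the 0.932% that a count of 0 allows. Their levels there were 72.1 CPM (58.2 to 88.3) and 20.2 CPM (13.2 to 29.5), intervals that hold the 71.7 and 22.3 CPM of CD3E+ cells. A further 204 kept cells had no *CD3E* UMI and were not B gene cells, though they could hold UMIs of *CD3D*, *CD3G* or B cell genes. Among them *GATA3* was found in 8.82% (5.31 to 13.6) and *MAF* in 3.43% (1.39 to 6.94), above a limit of 1.47%. *GATA3* had 36.3 CPM (21.5 to 57.3) in these cells, below its level in CD3E+ cells, and *MAF* had 16.1 CPM (6.96 to 31.8). Their median depth was 1455 UMIs. *PTGDR2* was found in none of either set.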

How the results depend on the processing

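Of 203 alternative values, 178 stayed within the counting interval of the value reported, 25 moved out of it and none turned the direction of a difference beyond counting error. The 7 such differences (*GATA3* by *CCR4*, *CCR7* and *GZMB*, and *MAF* by *CXCR3*, *CCR9*, *CCR7* and *GZMB*) kept their sign in 84 of 84 alternatives. Ratios within counting error changed sign in places, as for *GATA3* by *CXCR3* and *FOXP3* and *MAF* by *CCR4* below. With 1 animal, nothing here speaks to the spread between animals. Depth limits *PTGDR2* most, at 11 UMIs, then *MAF* in the small groups. No paired analysis was possible because both libraries are readouts of the same cells of 1 sample.

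In cells with 0 UMIs of the other 6 split genes, the log2 ratios of *GATA3* were 1.495 by *CCR4*, −0.37 by *CXCR3*, −0.35 by *CCR6*, −0.19 by *CCR9*, 0.14 by *FOXP3*, −0.69 by *CCR7* and −0.66 by *GZMB*, and those of *MAF* were −2.22 by *CCR4* (on 1 UMI) and −0.58 by *CCR6*. In cells with 0 *GZMB* UMIs, *MAF* by CD8 tag was 0.36. With splits at 2 or more UMIs, *GATA3* was 1.30 by *CCR4*, −0.53 by *CCR7*, −1.05 by *FOXP3* and 0.28 by *CCR6*, and *MAF* was 0.65 by *CXCR3* and 0.36 by *CCR6*. Cells thinned to 2000 UMIs gave shares of 13.0% for *GATA3*, 4.50% for *MAF* and 0.0577% for *PTGDR2*, and *MAF* by *CCR9* at −1.22. With the splits thinned too, *MAF* was 0.015 by *CXCR3*, −1.52 by *CCR9* and −1.27 by *FOXP3*, and *GATA3* was 0.42 by *CXCR3*. Without the 5% of cells with most UMIs, *GATA3* by *CCR4* was 1.32. Another mitochondrial limit, a mean over cells, quartiles of depth, no *CD3E* condition and other tag limits moved none of these ratios out of their intervals. Leaving out cells with B cell genes, with NK cell genes or with *MKI67* or *RRM2* moved none either, and these 3 alternatives were chosen after seeing the data. The causes of the moves were not tested.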
